A study of Homo sapiens with 13 samples.

Results

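In Nalm6 cells, 6479 genomic regions held a LEF1 peak in each of 6 CUT&RUN libraries and no peak in any of 6 libraries made with an antibody against TCF7L2. They are called LEF1-only regions here. They were selected on the measured peaks themselves: all peaks of the 6 LEF1 lists that overlapped by at least 1 bp were merged into 644918 regions, the 65207 regions with a peak in all 6 LEF1 lists were kept, and those that overlapped no TCF7L2 peak were taken. The LEF1-only regions made up 9.94% of the 65207, and the other 58728 overlapped a TCF7L2 peak by at least 1 bp. LEF1 peak presence and TCF7L2 peak absence are therefore properties of the choice, and values tied to them are given as a description without a test.

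LEF1 and TCF7L2 are DNA-binding proteins of the TCF/LEF family. Both carry a closely similar HMG box, recognise closely similar DNA, and act at the end of the canonical Wnt pathway: with beta-catenin bound they activate target genes, and with Groucho/TLE corepressors bound they repress them. LEF1 is known for its roles in early lymphocytes and is expressed in many lymphoid leukaemias, whereas TCF7L2 is best known in intestinal and metabolic tissues. Prednisolone is a synthetic glucocorticoid used in the treatment of acute lymphoblastic leukaemia, and it acts through the glucocorticoid receptor, itself a DNA-binding transcription factor.

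Nalm6 is an established human B-cell precursor acute lymphoblastic leukaemia line, and every library came from this single line. In CUT&RUN an antibody directs a nuclease to chromatin that carries its target, and the released DNA is sequenced. For each antibody, 3 control libraries and 3 libraries from cells given 5 µM prednisolone for 24 h were made, which the series describes as independent experiments. Controls are marked as untreated in their sample labels, whereas the treatment protocol names a vehicle, and all cells grew in medium with charcoal-stripped serum. The IgG library was not analysed here.

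The deposited peak lists held 128863 to 395786 peaks each, and prednisolone library 3 had the shortest list for both antibodies (128863 peaks for LEF1 and 144091 for TCF7L2). The lists were permissive, since none went below a −log10 p of 1.3, but the antibodies differed in how far the peaks passed the correction for multiple tests. A q-value of 1 was recorded for 48.36% to 78.48% of the TCF7L2 peaks and for 0% to 20.69% of the LEF1 peaks. The TCF7L2 lists covered 52.6 to 150.5 Mb each and 526.8 Mb together. The libraries also fell into sets by their shortest peak: 164 or 165 bp in LEF1 control 1 and prednisolone 2 and 3, and 187 to 197 bp in LEF1 control 2 and 3 and prednisolone 1.

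Among the 65207 regions found in all 6 LEF1 lists, the LEF1-only regions lay at the weak and narrow end. Both properties changed stepwise with the number of TCF7L2 lists that shared the region. Regions with a peak in 0, 1, 2, 3, 4, 5 and 6 TCF7L2 lists numbered 6479, 10391, 11360, 10927, 9376, 7939 and 8735. The median width rose along that order from 1023 bp for LEF1-only regions, through 1160, 1292, 1482, 1709 and 1995 bp, to 2451 bp for regions in all 6 TCF7L2 lists. A wider region has more bases in which a TCF7L2 peak can fall, so width is tied to the choice. The strength of LEF1 at a region was read as the highest −log10 p of its peaks in a library, converted to a percentile rank among the 65207 regions of that library, where 100 is the strongest. The median of the mean percentile over the 6 libraries was 32.6 for LEF1-only regions, 34.0 for regions with 1 TCF7L2 list and 77.9 for regions with all 6. The step from 0 to 1 TCF7L2 list was thus small beside the difference between 1 and 6.

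**Figure D1:**
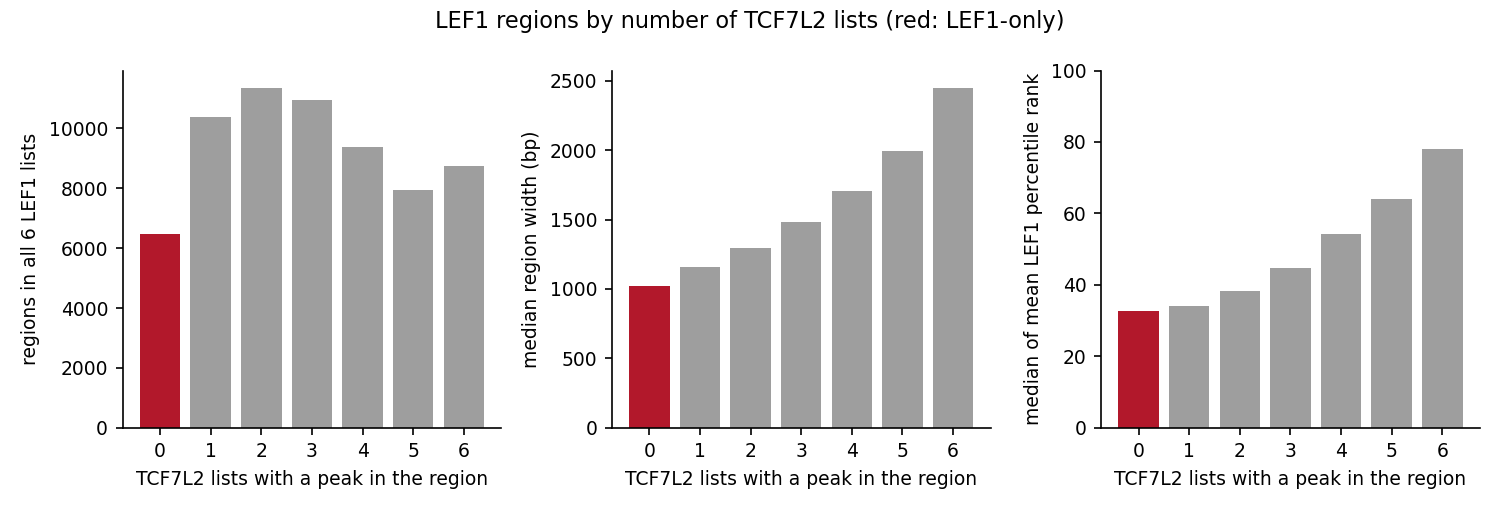
Number of regions in all 6 LEF1 lists, their median width in bp, and the median of their mean LEF1 percentile rank, by the number of TCF7L2 lists (0 to 6) with a peak in the region. The LEF1-only regions, in red, are the 6479 at 0 and have the lowest bars for width (1023 bp) and strength (32.6).

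Weak TCF7L2 peaks decided how many other regions were kept out of the LEF1-only set. Of the 10391 regions kept out by a single TCF7L2 list, that peak had a q-value of 1 in 5911 (56.9%), and a −log10 q of at least 2, which is a q-value of at most 0.01, in 65. The single list was TCF7L2 control 1 in 2421 regions, control 2 in 2034, control 3 in 2202, prednisolone 1 in 1576, prednisolone 2 in 1488 and prednisolone 3 in 670. When only TCF7L2 peaks with a −log10 q of at least 2 were allowed to remove a region, 52975 of the 65207 regions remained. When that limit was instead placed on the LEF1 peaks before merging, 767 LEF1-only regions remained. The 6479 regions lack TCF7L2 peaks at either limit on the TCF7L2 lists, whereas the share of regions that lack TCF7L2 moved widely with the limit chosen.

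The TCF7L2 lists of the treatments did not remove regions in equal number. The control lists 1, 2 and 3 overlapped 38164, 36702 and 38007 of the 65207 regions (58.5%, 56.3% and 58.3%), and the prednisolone lists 1, 2 and 3 overlapped 32559, 28202 and 21867 (49.9%, 43.2% and 33.5%). All 3 control lists lay above all 3 prednisolone lists, with the lowest share in the shortest list. The longest list, prednisolone 2 with 395786 peaks, also overlapped fewer regions than every control list. Its peaks were mostly weak, with a q-value of 1 in 78.48%. A −log10 q of at least 2 was reached by 7117, 7606 and 9730 peaks in control 1, 2 and 3, and by 6499, 3511 and 3071 in prednisolone 1, 2 and 3. No control TCF7L2 peak was present in 11505 regions (17.6%) and no prednisolone TCF7L2 peak in 19439 (29.8%), and the LEF1-only regions are the 6479 common to both. Regions with no control TCF7L2 peak and a peak in all 3 prednisolone lists numbered 201, against 2064 (3.17%) with the reverse pattern. The LEF1-only set was therefore limited more by the control TCF7L2 lists than by the prednisolone lists, and the parts of list length and peak strength in this were not tested.

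TCF7L2 peaks were close to most LEF1-only regions. The 6 TCF7L2 lists together covered 526.8 Mb, and the distance from other genomic positions to these peaks was not measured. The distances are therefore a description and do not set LEF1-only regions apart from other positions. The nearest TCF7L2 peak of any list was a median of 629 bp from the region edge, with an interquartile range of 270 to 1242 bp. It lay within 100 bp in 589 regions (9.09%), within 1000 bp in 4355 (67.2%) and within 5000 bp in 6388 (98.6%). Measured from the median LEF1 summit, the median distance was 1182 bp, with an interquartile range of 808 to 1804 bp. These nearest peaks were weak: 4065 of 6479 (62.7%) had a q-value of 1, and 91 (1.4%) had a −log10 q of at least 2. The TCF7L2 lists as a whole were weak too, with a q-value of 1 for 48.36% to 78.48% of their peaks. In lists of 144091 to 395786 peaks, 3071 to 9730 had a −log10 q of at least 2. Taking 1 list at a time, the median distance was 2224, 2402 and 2299 bp to the TCF7L2 peaks of control 1, 2 and 3, and 2704, 2966 and 5520 bp to those of prednisolone 1, 2 and 3.

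At the boundary of the rule, 11 LEF1-only regions ended at the base beside a TCF7L2 peak with 0 bases between them, and 3 more had 1 base between. Examples just inside were chr4:9437826-9439321, chr4:56213303-56214409 and chr5:76270331-76271071, all in hg19 coordinates counted from 1, as are those that follow. Just outside were 8 regions whose largest overlap with a TCF7L2 peak was 1 bp, among them chr1:51485795-51486527, chr1:229807135-229808204 and chr5:142943849-142944826. At the other extreme, the LEF1-only region farthest from TCF7L2 was chrY:15450462-15451171, with 41937 bp to the nearest peak. The next farthest were chr5:146477377-146478440 at 11276 bp and chr6:26212003-26212660 at 10730 bp. Chromosome Y held 10 LEF1-only regions, and TCF7L2 peaks covered 2.66% of its span, less than on any other chromosome.

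Most LEF1-only regions were compact. Their interquartile range of width was 800 to 1324 bp, and the whole range was 211 to 5082 bp. At least 2000 bp was spanned by 278 of them (4.29%), against 31.3% of the regions with TCF7L2, whose median width was 1543 bp. A single peak in each of the 6 LEF1 lists made up 4210 LEF1-only regions (65.0%), against 42.2% of the regions with TCF7L2. The summits of the strongest peak in each library spanned a median of 318 bp in LEF1-only regions and 362 bp in the others. This did not hold at like width. From 750 to just under 1000 bp the medians were 285 and 287 bp. In every class from 1000 bp upward the LEF1-only span was the larger, as with 653 against 433 bp from 1500 to just under 2000 bp. The 3 widest LEF1-only regions were all on chromosome 2: chr2:189386879-189391960 (5082 bp), chr2:68666636-68671017 (4382 bp) and chr2:56085396-56089241 (3846 bp). In the widest, the summits of the 6 libraries were spread over 3694 bp, so that its overlapping peaks did not mark 1 shared position.

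LEF1 strength also differed between regions of like width. Among regions from 1500 to just under 2000 bp the median percentile was 36.9 for LEF1-only regions and 49.3 for the others. Among those from 2000 to just under 3000 bp the medians were 45.7 and 61.8, and among those of 3000 bp or more they were 49.9 and 81.4. That last class held 27 LEF1-only regions with a median width of 3150 bp, against 3774 bp for the others, so its widths were not alike. Below 500 bp the gap was small, with 29.4 against 32.4. LEF1-only regions had the lower median in all 8 width classes, and the gap widened with each class from 500 bp upward. Seen from the other side, LEF1-only regions were 32.5% of all regions under 500 bp and 0.392% of those of 3000 bp or more. When the 65207 regions were placed in 10 equal classes by mean LEF1 rank, the LEF1-only share fell at every step, from 20.0% of the weakest class to 1.15% of the strongest.

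**Figure D2:**
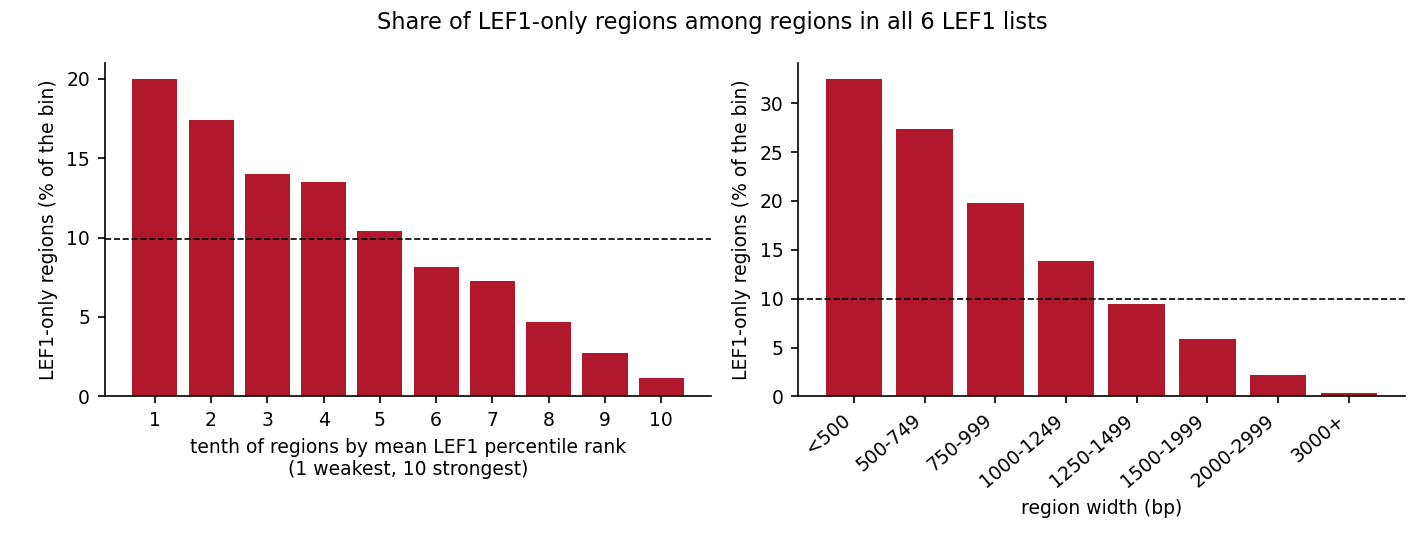
LEF1-only regions as a percentage of all regions in all 6 LEF1 lists, in 10 equal classes of mean LEF1 percentile rank (left) and in classes of region width in bp (right); the dashed line is the 9.94% over all regions. The share goes down at every step from 20.0% to 1.15% with strength and from 32.5% to 0.392% with width.

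The low LEF1 strength among the regions in all 6 LEF1 lists was seen in every library. The median percentile of LEF1-only regions was 32.7, 32.6 and 34.1 in LEF1 control 1, 2 and 3 and 31.5, 31.2 and 31.0 in prednisolone 1, 2 and 3. In the regions with TCF7L2 it lay between 52.2 and 52.9 in the same libraries. The ranges of these library medians did not meet, but the regions themselves overlapped widely. Between the 5% and 95% quantiles, the mean percentile ran from 13.3 to 71.1 in LEF1-only regions and from 17.5 to 93.4 in regions with TCF7L2. In each of the 6 libraries the median of the regions with 1 TCF7L2 list lay much nearer to that of the LEF1-only regions, at 32.6 to 35.4. The mean of the library medians was 33.1 ± 0.839 (SD, n = 3) in controls and 31.2 ± 0.252 (SD, n = 3) after prednisolone. In the authors' peak values, which are not on one scale between libraries, the median fold enrichment of LEF1-only regions was 3.35, 3.37 and 3.42 in the controls and 3.17, 3.10 and 3.01 after prednisolone. A −log10 q of at least 2 was reached by 56.3%, 45.8% and 55.0% of them in the controls and by 52.5%, 45.6% and 37.1% after prednisolone. The lowest share came from prednisolone 3, whose list was the shortest.

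**Figure D3:**
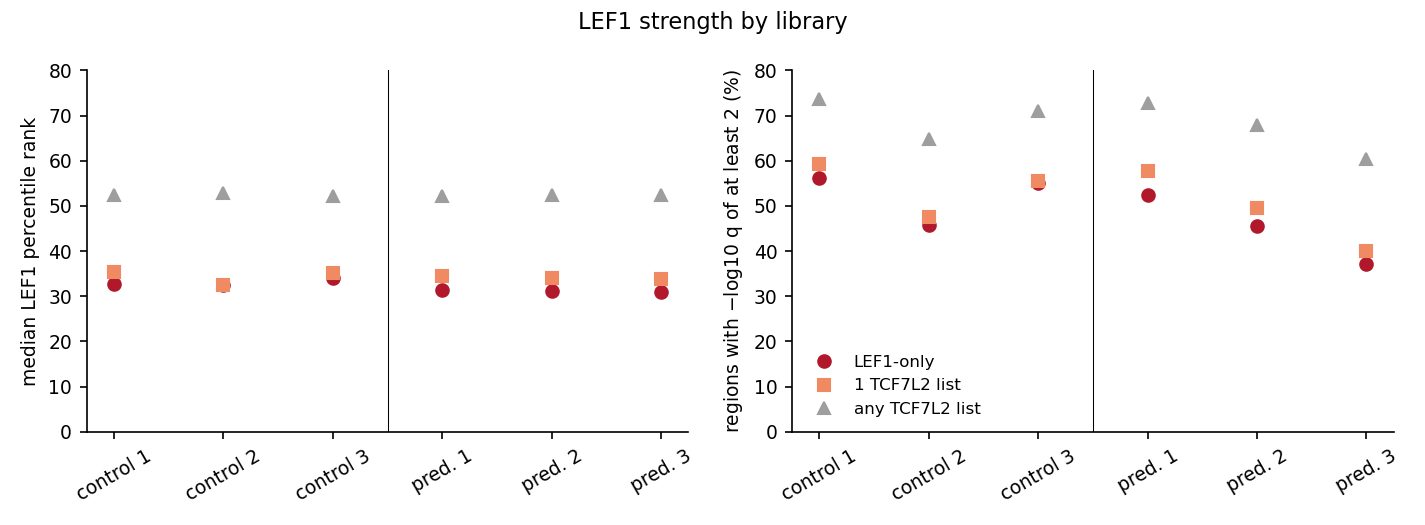
Median LEF1 percentile rank (left) and percentage of regions with a −log10 q of at least 2 (right) in each of the 6 LEF1 libraries, for LEF1-only regions, regions with a peak in exactly 1 TCF7L2 list, and regions with a peak in any TCF7L2 list. LEF1-only regions sit between 31.0 and 34.1 on the left panel, close to the regions with 1 TCF7L2 list and below the 52.2 to 52.9 of all regions with TCF7L2.

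A minority of LEF1-only regions was strong in all 6 libraries. A −log10 q of at least 2 in every library was found in 742 (11.5%), against 35.5% of the regions with TCF7L2, and a −log10 q of at least 5 in 161 (2.48%), against 16.2%. The 161 had a median width of 1201 bp and lay a median of 847 bp from the nearest TCF7L2 peak. Their LEF1 summits fell close together, with a median span of 130 bp over the 6 libraries, and 122 of them (75.8%) were a single peak in every list. Only 14 LEF1-only regions (0.216%) were at or above the 90th percentile in all 6 libraries, against 3.97% of the regions with TCF7L2. The low shares were not particular to LEF1-only regions. In regions with 1 TCF7L2 list, 14.0% had a −log10 q of at least 2 and 2.75% of at least 5 in every library. At or above the 90th percentile in all 6 were 0.192% of them.

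The 8 LEF1-only regions with the highest worst rank lay between percentiles 93.5 and 99.9, with fold enrichments of 4.46 to 12.7, −log10 q values of 18.8 to 91.5 and summits within 53 to 163 bp. Because peak scores of different libraries are not on one scale, these regions are compared by percentile rank. The strongest was chr20:29590569-29592753, where the percentile was 99.53, 99.45 and 99.65 in LEF1 control 1, 2 and 3 and 99.61, 99.9 and 99.79 in prednisolone 1, 2 and 3. The treatments overlapped, and the region ranked between 66 and 358 of 65207 in every library. The nearest TCF7L2 peak was 310 bp away, and the neighbouring LEF1 region, 128 bp away, overlapped a peak of 1 TCF7L2 list.

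The region chr13:28400570-28401548, of 979 bp, stood farthest from TCF7L2 among the 8, with 5287 bp to the nearest peak. Its percentile was 99.33, 99.69 and 99.38 in the controls and 99.1, 96.6 and 97.5 after prednisolone, so that all treated libraries were lower. Its summits lay within 71 bp. At chr10:116888568-116890156, 777 bp from TCF7L2, the percentiles were 97.3, 98.3 and 96.5 in the controls and 96.6, 98.6 and 98.2 after prednisolone, with overlap. At chr17:27696825-27697950, 1317 bp from TCF7L2, they were 98.5, 99.32 and 99.18 against 99.28, 95 and 95.8. There prednisolone 1 stood among the controls and prednisolone 2 and 3 were the lowest of the 6.

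At chr14:21081789-21083713, 4805 bp from TCF7L2, the percentile was 95.3, 96.0 and 94.8 in the controls and 97.8, 97.4 and 97.2 after prednisolone. The controls were all lower here, and the next LEF1 region, 379 bp away, was LEF1-only as well. At chr7:51230079-51231655 the percentiles were 99.13, 99.22 and 94.5 in the controls and 98.1, 95.5 and 99.15 after prednisolone, spread alike in both. That region stopped 5 bp short of a peak in TCF7L2 prednisolone 2 whose q-value was 1, so its membership turned on a few bases of a weak peak. At chr21:37513370-37515041 they were 98.2, 94.9 and 94.1 against 98.1, 98.7 and 96.9, and at chr11:34606775-34608872 they were 96.6, 98.3 and 98.5 against 98.8, 93.5 and 97.2, both with overlap between the treatments. None of the 8 passed the limma test of LEF1 rank described below, with adjusted p of 0.511 to 0.949. With ranks taken from the fold enrichment in place of the p-value, the lowest percentile of these regions ranged from 60.2 at chr14:21081789-21083713 to 95.3 at chr10:116888568-116890156.

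**Figure D4:**
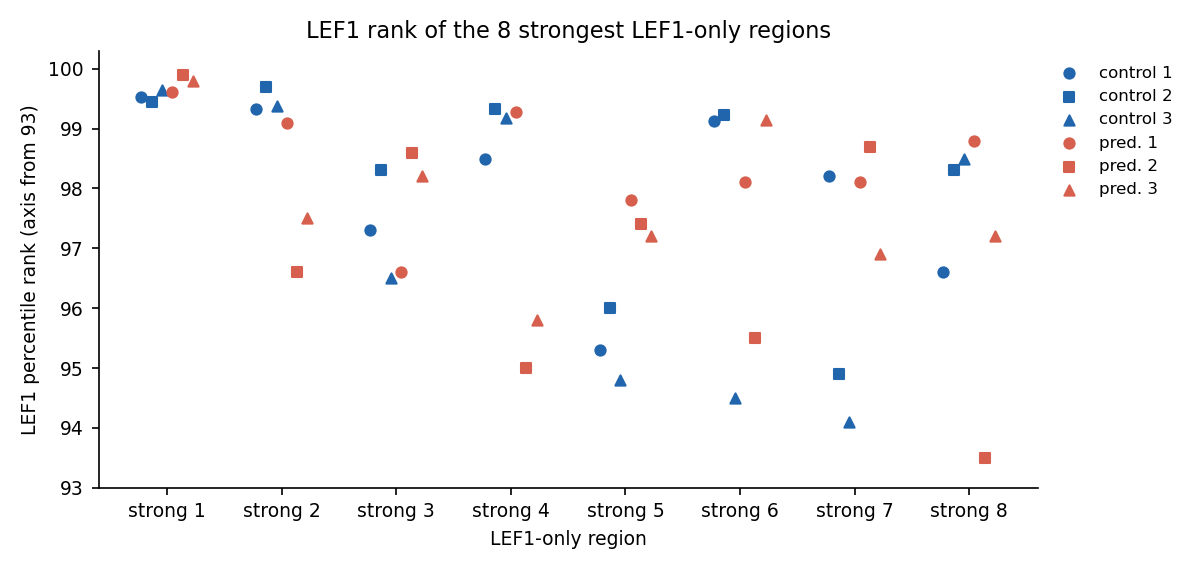
LEF1 percentile rank (100 is the strongest of 65207 regions; the axis starts at 93) in the 6 libraries for the 8 LEF1-only regions with the highest worst percentile rank, numbered from strong 1 (chr20:29590569-29592753) in the order of the text. Points are single libraries, with controls in blue and prednisolone in red; all values lie between 93.5 and 99.9.

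LEF1-only regions were spread over the genome in near proportion to LEF1 regions. On the chromosomes other than Y they made up 8.33% (chromosome 21) to 11.1% (chromosomes 14 and 22) of the regions found in all 6 LEF1 lists, with a median of 9.78%. TCF7L2 peaks covered 6.38% of the span of chromosome X and 22.1% of that of chromosome 22, and the LEF1-only share was 9.17% on X and 11.1% on 22. On chromosome Y, with 2.66% covered, the share was 7.35% of 136 regions. A link between coverage and share was not tested. Chromosome 1 held the most, with 646 LEF1-only regions.

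LEF1-only regions neighboured each other somewhat more often than other regions did. Along the order of the 65207 regions, 4965 LEF1-only regions had a region with TCF7L2 on each side, 613 runs held 2 LEF1-only regions, 80 held 3 and 12 held 4. The nearest neighbour was itself LEF1-only for 865 of them (13.4%), against 9.33% of the regions with TCF7L2 and 9.73% of all regions. The next region stood a median of 5670 bp away, against 4397 bp for the regions with TCF7L2. For 1206 LEF1-only regions (18.6%) a neighbour lay within 1000 bp, and 1012 of these neighbours (83.9%) carried a TCF7L2 peak, 150 of them (12.4%) in all 6 TCF7L2 lists. Since 58728 of the 65207 regions carried TCF7L2, most neighbours of any region did, and these counts are given as a description.

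The effect of prednisolone on LEF1 at these regions was compared over libraries. The rule did not use the direction of a difference, but it required a LEF1 peak in every control and prednisolone list, so that a region where LEF1 peaks appeared or disappeared could not be a member. The percentile ranks of the 6 LEF1 libraries were turned into normal scores, 3 prednisolone libraries were compared with 3 controls by limma over all 65207 regions, and p-values were adjusted by Benjamini-Hochberg with a threshold of 0.05. Of all regions, 1 was called (0.00153%), lower after prednisolone, and it was not LEF1-only. None of the 6479 LEF1-only regions was called, and the lowest adjusted p among them was 0.0757 by limma. An unadjusted p under 0.05 was reached by 344 LEF1-only regions (5.31%) in the higher direction and 394 (6.08%) in the lower, against 6.99% and 5.98% of all regions. LEF1 rank was thus not shown to change at any LEF1-only region by this fit, and the share with a low unadjusted p was below the background for higher and near it for lower regions.

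The direction of the small differences was shared out unevenly. All 3 prednisolone ranks lay above all 3 control ranks in 408 LEF1-only regions (6.3%), against 9.73% of all regions, and below them in 540 (8.33%), against 9.95% of all regions. With 3 libraries against 3, the exact permutation test of a single region cannot go below 0.1. Along the number of TCF7L2 lists from 0 to 6, the share of regions with all prednisolone ranks higher was 6.3%, 7.01%, 7.38%, 9.11%, 9.73%, 12.7% and 16.6%, an increase at every step. The share with all prednisolone ranks lower had no such order, at 8.33%, 8.35%, 9.82%, 11.0%, 11.1%, 11.0% and 9.71%. The median difference in normal score, prednisolone minus control, was −0.0675 for LEF1-only regions and −0.0185 for the regions with TCF7L2, and 45.3% and 48.6% of them had the higher mean after prednisolone.

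LEF1 strength moves with this count, so the shares are also described in classes of like strength. All prednisolone ranks were higher in a smaller share of the LEF1-only regions than of the others in each of the 10 classes of mean rank. The gap was small in the weakest class, which held 1307 LEF1-only regions, at 5.28% and 5.62%. In the second strongest class, which held 179, all prednisolone ranks were higher in 4.47% of the LEF1-only regions and in 12.4% of the others, and lower in 11.7% and 13.3%. In the strongest class, which held 75 LEF1-only regions, the shares were 9.33% and 13.2% higher and 13.3% and 15.8% lower. The share with all prednisolone ranks lower had no such order: it was larger among LEF1-only regions in 6 of the 10 classes, as in the eighth, at 13.8% against 12.4%. Widths were not alike in these classes, with medians of 1279 and 2778 bp in the strongest. In classes of width, all prednisolone ranks were higher in 5.59% of LEF1-only regions and 4.71% of the others under 500 bp. In every wider class the LEF1-only share was the smaller. The parts of strength and width in these shares were not tested. Ranks of LEF1-only regions also agreed less between libraries: across the 6479 regions, the correlation of normal scores was 0.345 to 0.481 within a treatment and 0.285 to 0.396 across treatments, against 0.639 to 0.713 and 0.547 to 0.626 across all 65207 regions. These correlations run across regions of the same libraries and are given as a description.

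The regions with the largest differences, among those whose treatments did not overlap, included 5 with higher and 5 with lower ranks after prednisolone. At chr9:74389632-74390585 the LEF1 percentile was 0.958, 0.317 and 0.763 in control 1, 2 and 3 and 49.0, 83.0 and 72.0 in prednisolone 1, 2 and 3. All controls were thus among the weakest of the 65207 regions and all prednisolone libraries near or above the middle. The difference in normal score was 3.00 with a standard error of 0.35 and an adjusted p of 0.0757 by limma, the lowest of any LEF1-only region.

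At chr8:141636929-141638161 the percentiles were 2.28, 13.3 and 23.8 in the controls and 87.2, 83.1 and 87.2 after prednisolone, the tightest prednisolone values of these regions. The fold enrichment there was 1.88, 2.21 and 2.73 in the controls and 6.93, 5.46 and 6.26 after prednisolone, and the 6 summits lay within 61 bp. The difference in normal score was 2.35 with a standard error of 0.38 and an adjusted p of 0.0994 by limma. At chr15:47042942-47044294 the percentiles were 6.97, 8.78 and 14.6 against 53.5, 93.7 and 89.4, and the fold enrichments were 2.42, 2.39 and 2.78 against 4.46, 11.3 and 8.97, with an adjusted p of 0.116 by limma. Prednisolone 1 was the lowest of the treated libraries there and still clear of the controls.

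The other 2 regions with the largest higher values were less even. At chr11:67415137-67416430 the percentiles were 50.4, 0.0759 and 0.886 in the controls and 63.0, 71.1 and 79.5 after prednisolone, so control 1 came close to the treated libraries, and the adjusted p was 0.22 by limma. Its nearest TCF7L2 peak, 142 bp away, was one of the few with a strong score, a −log10 q of 4.58. At chr1:183548856-183549762 the percentiles were 15.1, 0.5 and 0.464 against 65.1, 74.4 and 48.1, with an adjusted p of 0.129 by limma.

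In the opposite direction, chr8:146282486-146283756 stood at percentiles of 76.7, 72.5 and 79.9 in the controls and 2.88, 30.8 and 0.0023 after prednisolone. The controls were close together and the treated libraries were not, and the normal-score difference of −2.88 had a standard error of 0.75 and an adjusted p of 0.185 by limma. The region chr20:61454330-61454629, only 300 bp wide, had percentiles of 85.4, 85.4 and 74.5 in the controls and 37.7, 2.95 and 0.0889 after prednisolone, with an adjusted p of 0.156 by limma. At chr11:122726883-122727842 they were 73.8, 70.4 and 53.1 against 1.15, 17.5 and 0.291, with an adjusted p of 0.129 by limma. In each of these 3 regions prednisolone 3, the library with the shortest list, was the lowest of the 6. Without it the normal-score differences were −1.92, −2.02 and −2.02 in that order, and with it they were −2.88, −2.70 and −2.41. Leaving out the lowest treated value always makes a fall smaller, so these values say nothing about the part of list length, which was not tested.

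At chr4:40623084-40623835 the percentiles were 68.3, 89.4 and 83.0 in the controls and 24.1, 13.3 and 1.9 after prednisolone, with prednisolone 3 the lowest again and an adjusted p of 0.125 by limma. At chrX:134212464-134213561 they were 70.4, 52.9 and 75.3 against 8.79, 0.177 and 18.0, with an adjusted p of 0.163 by limma, and here prednisolone 2 was the lowest. None of these 10 regions passed the threshold in the rank fit.

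**Figure D5:**
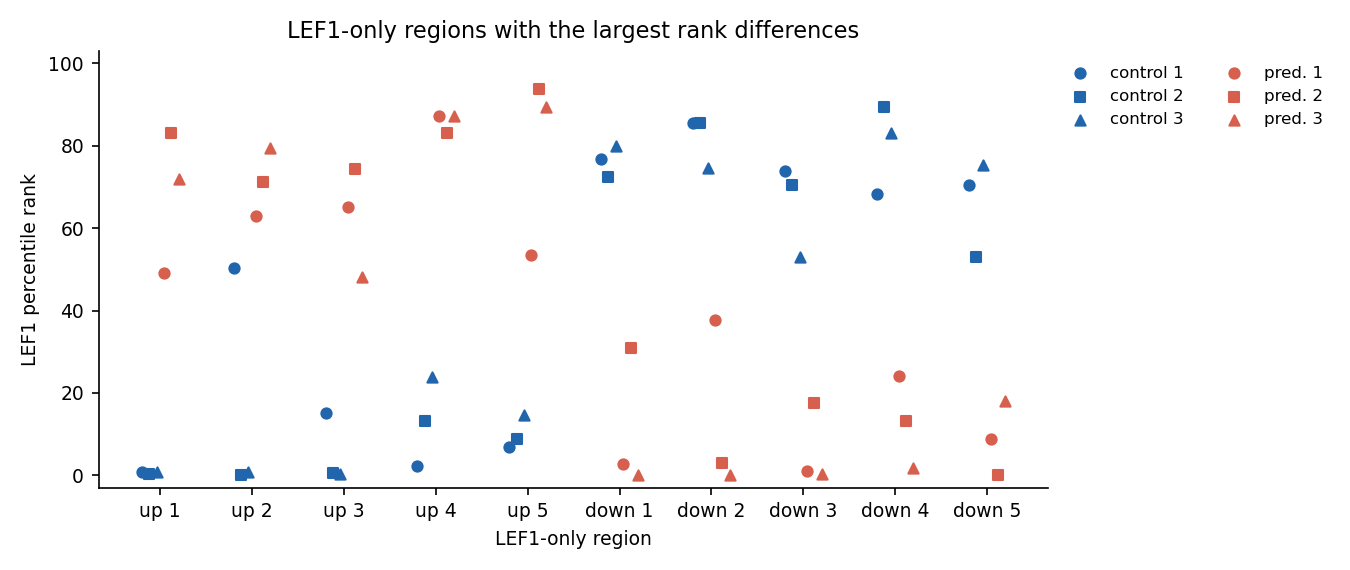
LEF1 percentile rank in the 6 libraries for the 5 LEF1-only regions with the largest higher and the 5 with the largest lower mean normal score after prednisolone, among regions whose treatments do not overlap (up 1 is chr9:74389632-74390585 and down 1 is chr8:146282486-146283756). Controls are blue and prednisolone red; control 1 of up 2, at 50.4, is the only control of the up regions above 23.8, and the regions were picked for this separation.

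A few LEF1-only regions passed when the measure was changed. With the authors' fold enrichment on a log2 scale, quantile normalized over the 6 libraries, limma called 298 of all regions (0.457%) and 5 LEF1-only regions (0.0772%), a lower share than over all regions. The 3 higher ones were among those above: chr8:141636929-141638161, with a log2 difference of 1.51, a standard error of 0.26 and an adjusted p of 0.0196 by limma, chr9:74389632-74390585, with 1.3, 0.26 and 0.0366, and chr15:47042942-47044294, with 1.65, 0.33 and 0.0366. The 2 lower ones are named after their values were seen. At chr7:37753045-37754686 the fold enrichment was 8.15, 5.1 and 5.26 in the controls and 2.78, 2.04 and 2.23 after prednisolone. At chr10:32228683-32230562 it was 8.15, 8.17 and 7.49 against 2.4, 4.22 and 2.84. Both had a log2 difference of −1.33 with a standard error of 0.28 and an adjusted p of 0.0464 by limma, and in both the LEF1 percentile of every control was above that of every treated library.

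When the rank fit was limited to the 32604 regions with the higher mean rank, limma called 198 regions (0.607%). Of these, 3 were LEF1-only, out of 1556 LEF1-only regions tested (0.193%). The limit was set on the mean of both treatments, and the 3 regions had low control ranks and entered only through their prednisolone ranks, so these calls support nothing further. They were chr8:141636929-141638161, given above, and 2 regions named after their values were seen. At chr5:16555470-16556942 the percentiles were 26.9, 19.0 and 22.2 in the controls and 77.4, 79.0 and 83.2 after prednisolone. At chr13:49942785-49943581 they were 16.4, 18.0 and 22.5 against 67.1, 76.8 and 78.3.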

How the data were processed

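The authors called peaks with MACS2 in each library separately and used the hg19 build, per the submitters' processing notes; the MACS2 version, the aligner and the control library are not given in the sources used here. The deposited columns used were each peak's fold ratio over the modelled background, its −log10 p-value and its −log10 q-value, which are the authors' own scores. They served to describe, rank or filter peaks within a list, except in 1 alternative, where log2 fold was quantile normalized and compared between libraries. Read depth is unknown, and 3 libraries per group limit the precision. No hg19 sequence or annotation was used here, so no region was assigned to a gene or searched for motifs.

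Each region took the highest −log10 p of its peaks in a list. Ranks over the regions in all 6 LEF1 lists became normal scores, which limma 3.58.1 in R 4.3.3 compared between treatments. The overlap and rank code was tested on simulated data. Regions named were the 8 with the highest worst percentile, the 5 with the largest difference in each direction among those whose treatments did not overlap, the 3 widest, the 3 farthest from TCF7L2, and 3 on each side of the boundary. The members, the lists and this rule were chosen with earlier results of these data known. The alternatives were limits on the peaks, the overlap, the ranking measure, the regions fitted, a replicate block, a term for the sets by shortest peak, and each library left out.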

Additional observations from a re-analysis of the deposited data

How the results depend on the processing

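The number of LEF1-only regions was 6479. With LEF1 peaks limited to a −log10 q of at least 2 it was 767, of 21523 newly merged regions in all 6 LEF1 lists. With that limit on TCF7L2 peaks it was 52975 of the 65207. It was 2125 when a TCF7L2 peak within 1000 bp also removed a region, and 10395 when only the span of LEF1 summits was compared. With 1 of the 12 lists left out it ranged from 7149 to 9033, and leaving out the shortest list of each antibody together, an alternative chosen after seeing the data, gave 9950. Requiring 100 bp of overlap gave 7262 and a fold of at least 2 for the peaks gave 8136, of 53261 newly merged regions. For members with a −log10 q of at least 2 in all 6 LEF1 lists, the median width was 1194 bp, the distance to TCF7L2 758 bp and the mean of the library median percentiles 70.7, against 32.2 for all members; from the summit the distance was 1182 bp for all members.

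Over all regions limma called 1, against 11 with ranks by fold, 198 in the stronger 32604 regions, 298 with log2 fold, 0 with a replicate block (lowest adjusted p 0.279 by limma), 0 with a term for the sets by shortest peak (0.127), and 0 with any of the 6 libraries left out (0.132 to 0.301). Among LEF1-only regions it called 0, except 3 in the stronger regions and 5 with log2 fold. LEF1-only regions whose treatments did not overlap numbered 948, or 270 in the stronger regions, and 1532 to 1753 with a library left out, where 2 libraries face 3. The main shares were 6.3% higher and 8.33% lower, against 9.73% and 9.95% of all regions. In the stronger regions they were 7.07% and 10.3%, against 12.2% and 12.3%. With a library left out they were 10.2% to 12.2% higher and 13.4% to 14.9% lower. Over all regions these were 13.8% to 16.2% and 14.4% to 16.6%. Of 111 alternative values for the 10 regions named for their difference, 0 reversed and 4 became called, with adjusted p of 0.0196 to 0.42 by limma. The 10 were picked for ranks that did not overlap between treatments. A reversal was therefore not possible with a library left out, a replicate block or the stronger regions, and these values give no support. The call in the stronger regions, at chr8:141636929-141638161, supports nothing further either. Replicate numbers did not pair the libraries: the correlation of same-numbered deviations was −0.0744, −0.0192 and −0.0445. The motif and gene-list results and their alternatives were not run.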
